A study of Mus musculus with 4 samples.

Results

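The neutrophil granule genes described here were 10 of the 15298 genes measured in sorted mouse peritoneal macrophages. They comprised 4 primary granule genes (*Mpo*, *Elane*, *Prtn3* and *Ctsg*), 4 secondary granule genes (*Ltf*, *Ngp*, *Camp* and *Lcn2*) and the pair of cytosolic S100 genes, *S100a8* and *S100a9*. The genes were selected on measured values of the same 4 libraries, in which neutrophil genes had already been seen to differ between microcurrent stimulation (MCS) and control, and they were grouped by the compartment in which a neutrophil stores their products. Their levels are therefore given as a description, without a test. The libraries came from CD11b+ F4/80+ Ly6G- cells sorted by flow cytometry from the peritoneum of 6-week-old female BALB/c mice. MCS mice received 300 µA at 400 Hz for 15 min at ZT2 through pads on the shaved abdomen and back under isoflurane, and control mice went through the same steps without current. Cells were collected at ZT2, when the stimulation had just ended, or 12 h later at ZT14, which gave 1 library each for control at ZT2, MCS at ZT2, control at ZT14 and MCS at ZT14. The labels and methods do not give the number of mice behind a library, and no spread between replicates exists, so all intervals below cover counting error only.

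A neutrophil fills its granules in the order in which it matures. Primary, or azurophil, granules are loaded in the promyelocyte with myeloperoxidase and the serine proteases neutrophil elastase, proteinase 3 and cathepsin G. Secondary, or specific, granules follow in the myelocyte with lactoferrin, neutrophilic granule protein, the cathelicidin Camp and lipocalin 2. S100a8 and S100a9 form calprotectin, a calcium-binding complex that fills the cytosol of neutrophils and is also made by monocytes. The sort selected against the neutrophil surface protein Ly6G, and the gene *Ly6g* was not analysed here.

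The libraries held between 8365590 and 9953243 reads, and 1 read was worth between 0.102 and 0.116 CPM, the read count of a gene scaled to a common library size by the authors. The markers of the labelled cell type were abundant. The macrophage genes *Lyz2* and *Itgam* lay between 17344 and 18847 CPM and between 4214 and 5162 CPM. *Adgre1*, which encodes F4/80, lay between 1086 and 1900 CPM, and *Timd4* of large peritoneal macrophages between 412 and 442 CPM. Against these, the 10 granule genes together came to 47.4 CPM in control at ZT2, 127 CPM in MCS at ZT2, 47.6 CPM in control at ZT14 and 57.5 CPM in MCS at ZT14. In bulk RNA, fewer cells of a type and less RNA per cell cannot be told apart.

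**Figure D1:**
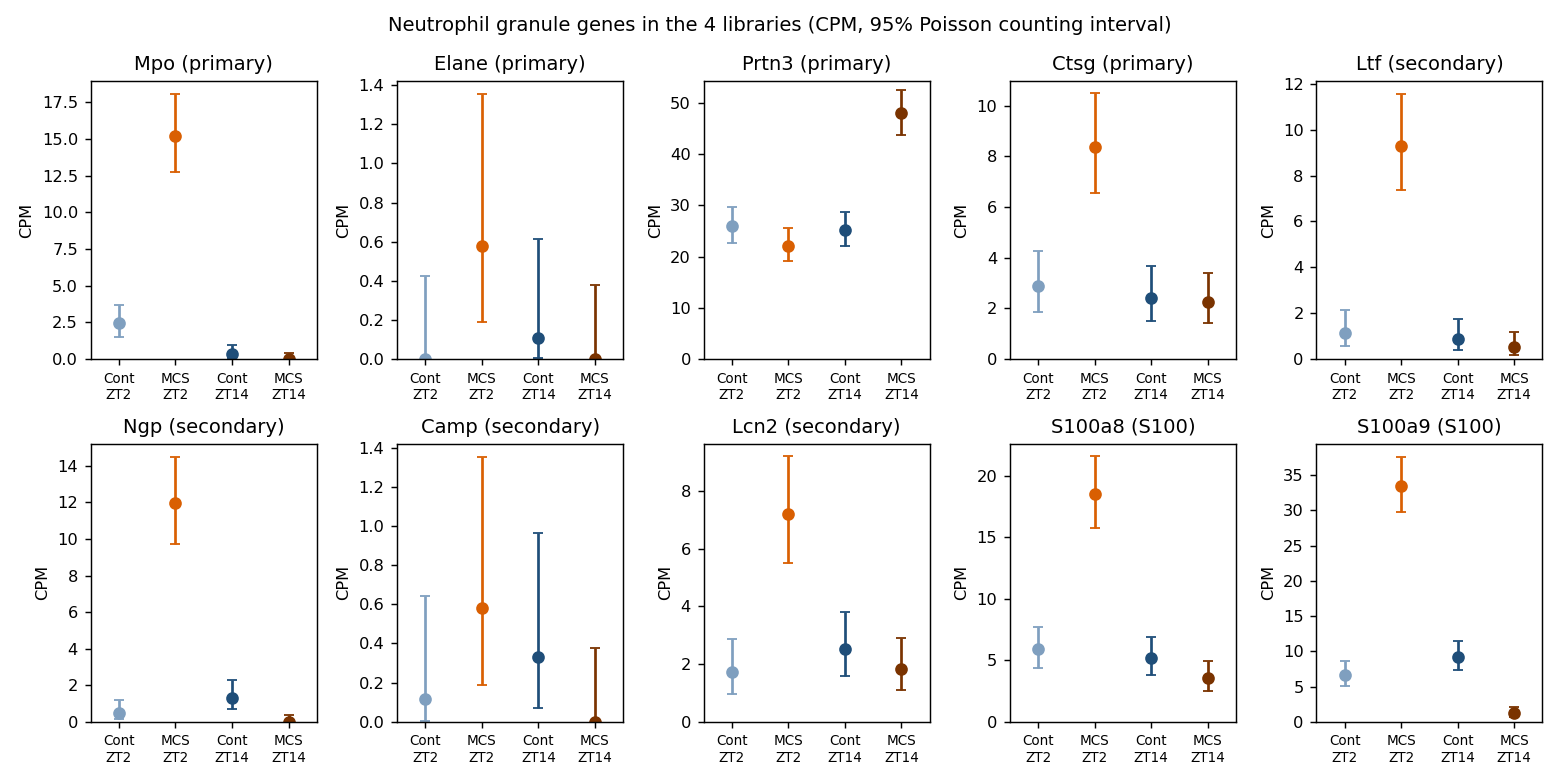
Level of each of the 10 genes in the 4 libraries, in CPM on a linear axis that starts at 0 and differs between panels. Points are single libraries and bars are 95% Poisson counting intervals. In 9 of the 10 panels the highest point is MCS at ZT2, and in that of *Prtn3* it is MCS at ZT14.

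The 3 classes did not share a single pattern. The secondary granule genes summed to 3.46 CPM without MCS and 29.0 CPM with MCS at ZT2, an 8.37-fold difference (log2 ratio 3.07, 95% interval 2.52 to 3.66), and to 5.05 CPM without MCS and 2.35 CPM with MCS at ZT14 (-1.10, -1.89 to -0.35). The S100 pair followed the same course, with 12.6 and 52.1 CPM at ZT2 (2.05, 1.74 to 2.36) and 14.4 and 4.81 CPM at ZT14 (-1.58, -2.10 to -1.09). Both class sums were thus higher in MCS directly after the stimulation and lower in MCS 12 h later. Of their single genes, only *Ngp* and *S100a9* had ZT14 log2 ratio intervals below 0. The primary granule genes summed to 31.3 CPM without MCS and 46.3 CPM with MCS at ZT2 (0.56, 0.34 to 0.79), and to 28.1 and 50.3 CPM at ZT14 (0.84, 0.62 to 1.06). That sum was carried by *Prtn3*. Without it, a split made after the values were seen, the primary granule genes came to 5.31 CPM without MCS and 24.1 CPM with MCS at ZT2 (2.18, 1.72 to 2.68). At ZT14 the same 3 genes had 2.86 CPM without MCS and 2.25 CPM with MCS, and the interval of the log2 ratio, -0.34, ran from -1.23 to 0.53.

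**Figure D2:**
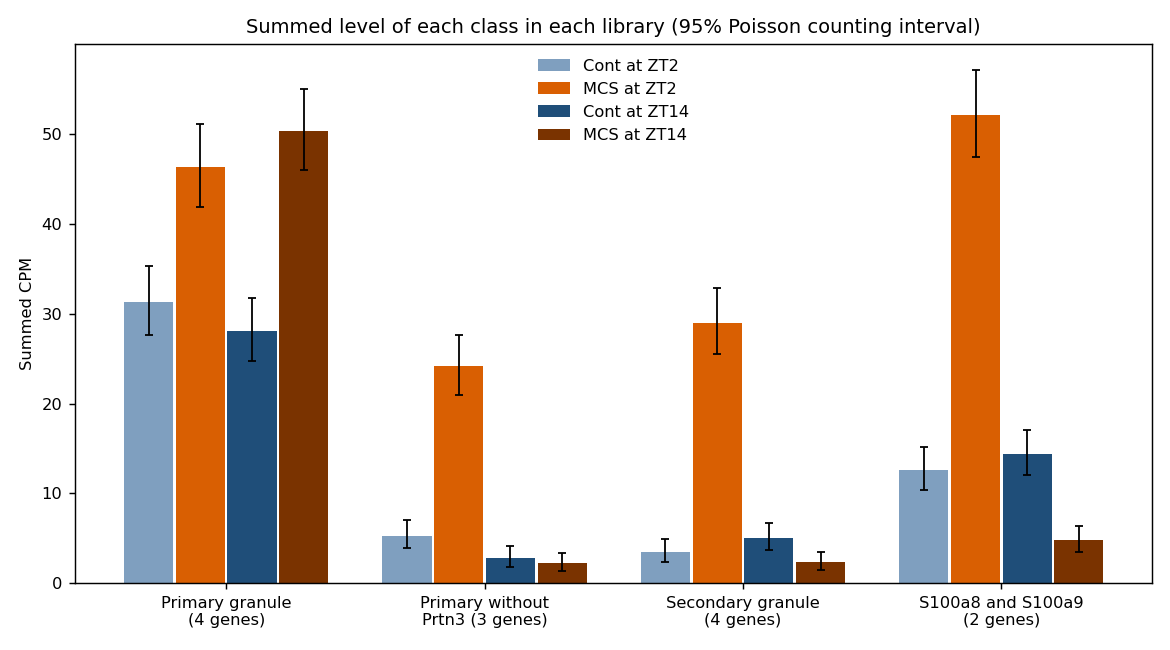
Summed CPM of each class in the 4 libraries, with bars from 0 and 95% Poisson counting intervals, 1 library per bar. MCS at ZT2 is the tallest bar for the secondary granule genes (29.0 CPM), the S100 pair (52.1 CPM) and the primary granule genes without *Prtn3* (24.1 CPM), while for all 4 primary granule genes it is MCS at ZT14 (50.3 CPM).

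The myeloperoxidase gene *Mpo*, on chromosome 11 of GRCm38 at chr11:87793581-87804413 on the plus strand, had 2.43 CPM (21 reads) in control at ZT2, 15.2 CPM (131 reads) in MCS at ZT2 and 0.330 CPM (3 reads) in control at ZT14. In MCS at ZT14 it had 0 reads, which allows up to 0.307 CPM at a limit of 3 reads, and the 95% Poisson interval used for overlaps reaches 0.377 CPM. The level in MCS at ZT2 stood above the other 3 with no overlap of intervals, and control at ZT2 stood above both ZT14 libraries, whose intervals overlapped. MCS against control at ZT2 was 6.27-fold (log2 ratio 2.65, 1.98 to 3.39). Within MCS, *Mpo* was at least 49.5-fold higher at ZT2 than at ZT14, taken against a limit of 3 reads for the library at 0, and the counting interval of the log2 ratio started at 5.31. In control it was 7.36-fold higher at ZT2, from 21 reads against 3 (2.88, 1.14 to 5.27). An antisense gene, *Gm11505*, overlaps *Mpo*, and it is not stated whether the counting used strand.

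*Ctsg*, which encodes cathepsin G and lies on the minus strand at chr14:56099881-56102574, had 2.89 CPM (25 reads) in control at ZT2, 8.35 CPM (72 reads) in MCS at ZT2, 2.42 CPM (22 reads) in control at ZT14 and 2.25 CPM (22 reads) in MCS at ZT14. MCS at ZT2 was again the high library, and the other 3 overlapped. The MCS to control ratio was 2.89-fold at ZT2 (1.53, 0.86 to 2.25) and did not leave 0 at ZT14 (-0.10, -1.02 to 0.82). *Elane*, the neutrophil elastase gene at chr10:79886247-79888215 on the plus strand, was at the limit of what these depths can show. It had 0 reads in control at ZT2, which allows up to 0.346 CPM, and 0 reads in MCS at ZT14, which allows up to 0.307 CPM. Control at ZT14 had 1 read (0.110 CPM) and MCS at ZT2 had 5 reads (0.580 CPM). All 4 counting intervals overlapped, and that of the log2 ratio of MCS to control at ZT2 started at -0.12, so a difference was not detectable at this depth.

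*Prtn3* went its own way. The proteinase 3 gene had 26.0 CPM (225 reads) in control at ZT2, 22.2 CPM (191 reads) in MCS at ZT2, 25.3 CPM (230 reads) in control at ZT14 and 48.1 CPM (470 reads) in MCS at ZT14. The first 3 levels overlapped within counting error and only MCS at ZT14 stood apart. MCS against control was thus 1.90-fold at ZT14 (0.93, 0.70 to 1.16), while at ZT2 the interval of the log2 ratio, -0.23, ran from -0.52 to 0.05. Within MCS, *Prtn3* was 2.17-fold lower at ZT2 than at ZT14 (-1.12, -1.37 to -0.87), and in control the times differed by 0.04 on the log2 scale (-0.23 to 0.31). *Prtn3* lies at chr10:79874476-79883174 on the plus strand, 3072 bases before *Elane*, the granule gene with the fewest reads. It overlaps *Plppr3* on the opposite strand, which was not analysed here, and it is not stated whether the counting separated the strands there. Of the genes around the pair, *Ptbp1* had between 200 and 223 CPM and *Med16* between 29.4 and 35.2 CPM in the 4 libraries.

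The promoters of these 3 primary granule genes are shown because *Mpo* was highest in MCS at ZT2 while *Prtn3* was not, and *Elane* lies next to *Prtn3*. The highest value of *Elane*, also in MCS at ZT2, rested on 5 reads and was not resolved. The 250 bases before the RefSeq start (GRCm38.p6, chr11:87793534-87793783, chr10:79886062-79886311 and chr10:79879417-79879666, all on the plus strand) are printed 5′ to 3′. Capitals mark matches to letters bound by PU.1, a transcription factor of myeloid cells (GAGGAA on either strand).
Mpo: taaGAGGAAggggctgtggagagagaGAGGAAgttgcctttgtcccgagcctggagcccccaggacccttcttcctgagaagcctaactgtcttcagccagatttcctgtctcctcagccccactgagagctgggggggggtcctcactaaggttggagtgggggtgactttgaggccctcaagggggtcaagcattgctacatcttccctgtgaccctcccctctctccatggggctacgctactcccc
Elane: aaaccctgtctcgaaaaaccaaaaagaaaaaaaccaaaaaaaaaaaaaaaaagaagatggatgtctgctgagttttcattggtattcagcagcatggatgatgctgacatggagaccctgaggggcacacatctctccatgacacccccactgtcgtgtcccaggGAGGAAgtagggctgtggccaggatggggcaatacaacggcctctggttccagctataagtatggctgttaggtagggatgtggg
Prtn3: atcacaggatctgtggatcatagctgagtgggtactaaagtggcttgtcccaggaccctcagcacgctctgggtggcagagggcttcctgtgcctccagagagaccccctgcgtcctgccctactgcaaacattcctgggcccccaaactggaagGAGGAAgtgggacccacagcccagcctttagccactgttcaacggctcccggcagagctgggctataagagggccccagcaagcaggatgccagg
The PU.1 letters stood 85 bases before the start of *Elane* and 95 bases before that of *Prtn3*, and *Mpo* held them at 247 and 224 bases. *Ctsg* held them at 216 bases, so all 4 primary granule genes had a match. Over all classes, 7 of the 10 genes held the PU.1 letters in this window, as did 23.3% of 32851 RefSeq promoter windows of the same length. The annotations place the start of *Prtn3* differently, since the GENCODE gene begins 5191 bases before the RefSeq start, and the offsets of the other 9 genes were at most 513 bases. A match of letters is a description and does not show binding, and the window of *Prtn3* was not set apart from that of *Elane* by any of the 4 motifs searched.

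The makeup of the primary class differed between libraries. *Prtn3* took 83.0% of the class reads in control at ZT2 (95% exact binomial interval 78.0% to 87.3%, 271 reads), 47.9% in MCS at ZT2 (42.9% to 52.9%, 399 reads), 89.8% in control at ZT14 (85.5% to 93.3%, 256 reads) and 95.5% in MCS at ZT14 (93.3% to 97.2%, 492 reads). *Mpo* took 32.8% of the class in MCS at ZT2 (28.2% to 37.7%) and 7.75% in control at ZT2 (4.86% to 11.6%). Among the reads of the primary genes without *Prtn3*, *Mpo* held 45.7% in control at ZT2 (30.9% to 61.0%, 46 reads) and 63.0% in MCS at ZT2 (56.0% to 69.6%, 208 reads), and these intervals overlapped. At ZT14 it held 11.5% in control (2.45% to 30.2%, 26 reads) and had 0 of 22 reads in MCS.

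**Figure D3:**
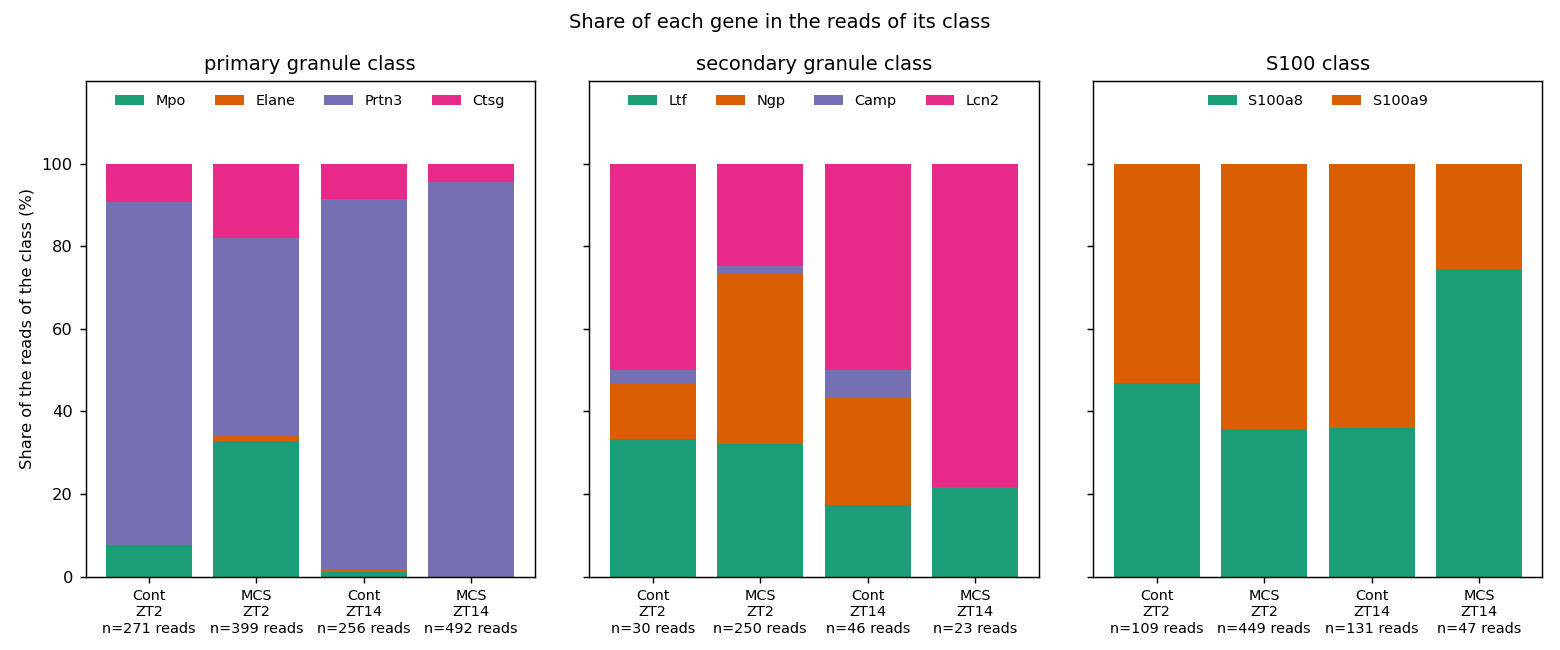
Share of each gene in the reads of its class, in percent, for the 4 libraries, with the number of class reads under each bar. *Prtn3* fills 47.9% of the primary bar in MCS at ZT2 and between 83.0% and 95.5% in the other 3, and *S100a9* fills 25.5% of the S100 bar in MCS at ZT14 and between 53.2% and 64.4% elsewhere.

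Among the secondary granule genes, *Ngp* had the widest range. The gene of neutrophilic granule protein, a member of the cystatin superfamily at chr9:110419747-110423012 on the plus strand, had 0.462 CPM (4 reads) in control at ZT2, 11.9 CPM (103 reads) in MCS at ZT2 and 1.32 CPM (12 reads) in control at ZT14. In MCS at ZT14 it had 0 reads, which allows up to 0.307 CPM. The highest and the lowest value were thus both in MCS libraries, and the intervals of the ZT14 libraries did not overlap. Those of MCS at ZT14 and control at ZT2 did, so the lowest library was not resolved. MCS against control was 25.9-fold at ZT2 (4.69, 3.29 to 6.60) and at least 4.30-fold lower at ZT14, taken against 3 reads, where the counting interval of the log2 ratio ended at -1.58. Within MCS, *Ngp* was at least 39.0-fold higher at ZT2 than at ZT14, taken the same way, and the interval of the log2 ratio started at 4.96.

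*Ltf* encodes lactoferrin, the iron-binding protein of specific granules, and lies at chr9:111019271-111042767 on the plus strand. It had 1.15 CPM (10 reads) in control at ZT2, 9.28 CPM (80 reads) in MCS at ZT2, 0.879 CPM (8 reads) in control at ZT14 and 0.511 CPM (5 reads) in MCS at ZT14. Only MCS at ZT2 stood apart, at 8.04-fold over control at ZT2 (3.01, 2.05 to 4.12) and 18.2-fold over MCS at ZT14 (4.18, 2.90 to 5.84). At ZT14 the log2 ratio of MCS to control was -0.78 with an interval from -2.74 to 1.01. *Lcn2*, the gene of the siderophore-binding lipocalin 2 at chr2:32384633-32388252 on the minus strand, had 1.73 CPM (15 reads) in control at ZT2, 7.19 CPM (62 reads) in MCS at ZT2, 2.53 CPM (23 reads) in control at ZT14 and 1.84 CPM (18 reads) in MCS at ZT14. It shared the high library with *Ltf* and *Ngp*, at 4.15-fold over control at ZT2 (2.05, 1.22 to 2.97), but its lowest value was that of control at ZT2. The 3 lower levels of *Lcn2* overlapped.

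The cathelicidin gene *Camp*, at chr9:109847379-109849617 on the minus strand, was too scarce to be ordered. It had 1 read (0.115 CPM) in control at ZT2, 5 reads (0.580 CPM) in MCS at ZT2 and 3 reads (0.330 CPM) in control at ZT14, and in MCS at ZT14 it had 0 reads, which allows up to 0.307 CPM. All 4 intervals overlapped, and the 5 reads against 1 at ZT2 gave a log2 ratio of 2.33 with an interval from -0.83 to 7.89. *Camp*, *Ngp* and *Ltf* lie in this order on chromosome 9, with 570129 bases between the first pair and 596258 between the second. Their levels differed within a library, and in MCS at ZT2 *Ngp* had 103 reads, *Ltf* 80 and *Camp* 5.

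The makeup of the secondary class differed between libraries. In MCS at ZT2, *Ngp* took 41.2% of the 250 class reads (35.0% to 47.6%), *Ltf* 32.0% (26.3% to 38.2%) and *Lcn2* 24.8% (19.6% to 30.6%). In MCS at ZT14, *Lcn2* took 78.3% of 23 reads (56.3% to 92.5%), and the rest were reads of *Ltf*. In both control libraries *Lcn2* took 50% of the class, of 30 and 46 reads. The intervals of *Ngp* and *Ltf* overlapped in MCS at ZT2, as did those of *Lcn2* and *Ltf* in control at ZT2, so the order of these shares was not resolved.

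The promoter of *Ngp* is shown as that of the secondary granule gene with the largest difference. The window is chr9:110419558-110419807 on the plus strand, and capitals mark matches to the letters of C/EBP, the factor family that drives specific granule genes in the myelocyte (TTGCNNAA on either strand, where N is any base).
Ngp: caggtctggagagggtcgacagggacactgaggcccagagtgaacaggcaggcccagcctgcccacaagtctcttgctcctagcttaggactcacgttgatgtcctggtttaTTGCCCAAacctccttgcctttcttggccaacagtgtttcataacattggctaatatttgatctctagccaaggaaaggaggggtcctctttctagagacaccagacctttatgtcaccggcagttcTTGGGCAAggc
*Ngp* held these letters at 138 and 11 bases before its start, *Ltf* at 75 and *Lcn2* at 216, so that 3 of the 4 secondary granule genes and none of the 4 primary granule genes had a match. Over all classes it was 4 of 10 genes, against 9.56% of all RefSeq windows.

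The S100 pair lies on chromosome 3 in opposite orientation, *S100a8* at chr3:90668978-90670035 on the plus strand and *S100a9* at chr3:90692632-90695721 on the minus strand, with 22596 bases between them. *S100a8* had 5.89 CPM (51 reads) in control at ZT2, 18.6 CPM (160 reads) in MCS at ZT2, 5.16 CPM (47 reads) in control at ZT14 and 3.58 CPM (35 reads) in MCS at ZT14. *S100a9* had 6.70 CPM (58 reads), 33.5 CPM (289 reads), 9.23 CPM (84 reads) and 1.23 CPM (12 reads) in the same order. Both were highest in MCS at ZT2 and lowest in MCS at ZT14. *S100a8* was 3.15-fold higher in MCS than in control at ZT2 (1.66, 1.19 to 2.14), and *S100a9* was 5.01-fold higher (2.32, 1.91 to 2.76). At ZT14 the pair parted. *S100a9* was 7.52-fold lower in MCS than in control (-2.91, -3.92 to -2.03), while the interval of *S100a8* reached past 0 (-0.53, -1.20 to 0.13).

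The products of the pair join in a complex, and the ratio of their reads was therefore followed. *S100a9* had 1.14 reads for each read of *S100a8* in control at ZT2 (0.767 to 1.69), 1.81 in MCS at ZT2 (1.48 to 2.21) and 1.79 in control at ZT14 (1.24 to 2.61). In MCS at ZT14 the ratio was 0.343 (0.162 to 0.676), below the intervals of the other 3 libraries. The promoters of the pair are shown because their products act together while their ratio was not constant. The windows are chr3:90668821-90669070 on the plus strand for *S100a8* and chr3:90695722-90695971 on the minus strand for *S100a9*. Capitals mark PU.1 letters and a TATA box (TATAAA) in *S100a8*, the second PU.1 match adjoining the TATA box, and C/EBP and RUNX letters (TGTGGT, RUNX being a factor of blood cells) in *S100a9*.
S100a8: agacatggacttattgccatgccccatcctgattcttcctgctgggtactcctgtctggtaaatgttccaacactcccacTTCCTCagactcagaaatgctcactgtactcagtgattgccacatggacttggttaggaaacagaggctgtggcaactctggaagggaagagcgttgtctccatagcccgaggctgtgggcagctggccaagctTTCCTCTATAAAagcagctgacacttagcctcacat
S100a9: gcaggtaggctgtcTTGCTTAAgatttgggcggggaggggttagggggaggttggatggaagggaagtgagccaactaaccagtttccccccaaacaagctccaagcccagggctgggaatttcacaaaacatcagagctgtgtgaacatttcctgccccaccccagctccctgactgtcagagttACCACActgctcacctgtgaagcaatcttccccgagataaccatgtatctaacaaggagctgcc
*S100a8* held the PU.1 letters at 170 and 36 bases and the TATA box at 30 bases before its start, and *S100a9* held the C/EBP letters at 236 and the RUNX letters at 64 bases. No motif was found in both windows, and no matches of different motifs shared a base in any of the 10 windows. RUNX letters were in 2 of the 10 genes and in 14.0% of all windows, and TATA letters in 2 of the 10 and 12.4%.

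Set per kilobase of the longest coding transcript, levels can be compared between genes. On this scale *Prtn3* was the highest granule gene in 3 of the 4 libraries, at 25.4 CPM per kb in control at ZT2, 24.6 CPM per kb in control at ZT14 and 46.9 CPM per kb in MCS at ZT14. In MCS at ZT2 it had 21.6 CPM per kb, after *S100a9* at 64.6 and *S100a8* at 38.2. *Ngp* followed with 9.78 CPM per kb in that library, then *Ctsg* with 8.34, *Lcn2* with 7.86, *Mpo* with 5.53 and *Ltf* with 3.38. None of the 10 genes had another gene's transcript at 90% identity or more over 150 bases or more.

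**Figure D4:**
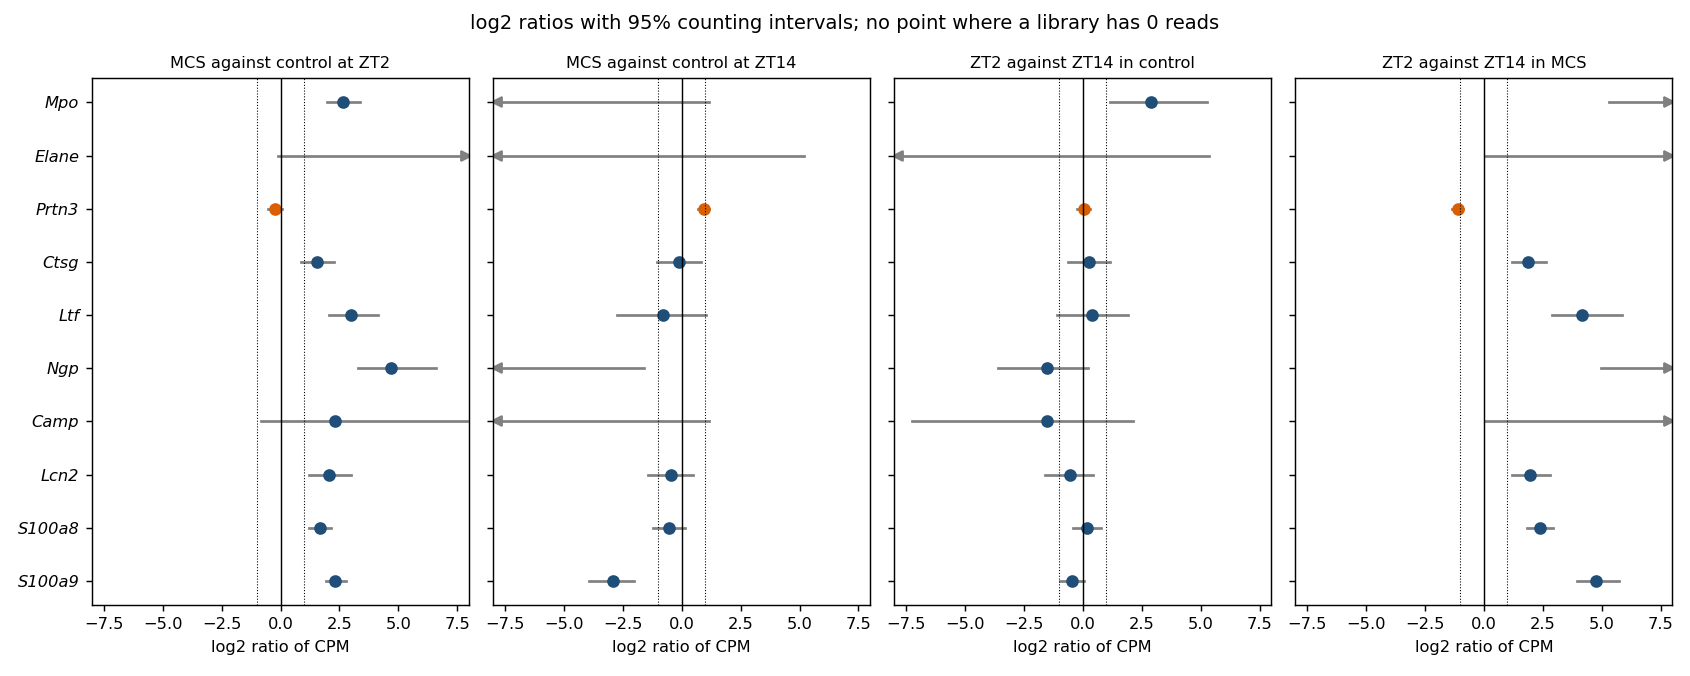
log2 ratios of CPM for the 10 genes in the 4 comparisons, with 95% counting intervals from the reads and dotted lines at -1 and 1. A gene with a library at 0 reads has an arrow and no point. *Prtn3* lies apart from the other genes in the outer panels, with -0.23 for MCS against control at ZT2 and -1.12 for ZT2 against ZT14 in MCS.

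The study's size criterion, a log2 ratio past 1 in either direction and a log2 of the mean CPM of the pair of libraries over 0, was then applied to the genes and to the whole list, with 0.1 CPM added to each value. In MCS against control at ZT2, 7 of the 10 genes were higher past it, all but *Elane* and *Camp*, which lay under the minimum, and *Prtn3*. Of the 12612 genes above the minimum, 1.44% were higher and 0.769% lower. The genes were chosen for this contrast, and nothing is read from the count. Over the 10 genes the median log2 ratio was 2.15, or 1.83 with libraries at 0 set to 3 reads, beside 0.00 over all genes. At ZT14, 1 of the 10 genes, *S100a9*, was lower and 0 were higher, against 1.57% and 1.84% of 12368 genes. There 5 of the 10 genes were above the minimum, and the median of all 10 was -0.87, or -0.27 with the zeros at 3 reads.

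Between the time points, the control libraries differed in 1 of the 10 genes, *Mpo*, which was higher at ZT2. In the background 2.42% of 12465 genes were higher and 1.19% lower at ZT2. Of the 10 genes 7 were above the minimum, and the median log2 ratio over all 10 changed sign with the handling of zeros, from -0.21 to 0.11 with zeros at 3 reads. In MCS, 7 of the 10 genes were higher at ZT2 and 1, *Prtn3*, was lower, against 3.96% and 1.87% of 12534 genes. The median was 2.77, or 2.13 with the zeros at 3 reads. The comparisons share libraries, so the high values of MCS at ZT2 enter both this one and that with control at ZT2.

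By library, 9 of the 10 genes had their highest value in MCS at ZT2. Of the 8 genes with a mean above 1 CPM, 7 were highest there, as were 25.7% of 12511 genes with such a mean. All 7 reached at least 2 times the next library, from 2.85-fold for *Lcn2* to 9.06-fold for *Ngp*, against 0.528% of genes. MCS at ZT2 was the highest and MCS at ZT14 the lowest library for 6 of the 8, the exceptions being *Prtn3* and *Lcn2*, against 13.7% of genes. These shares describe the libraries, since the genes were chosen with these values known. The intervals of the ZT14 libraries overlapped for *Mpo*, *Ctsg*, *Ltf* and *S100a8*, so the lowest library of these genes was not resolved. Nor was that of *Ngp*, for which MCS at ZT14 overlapped control at ZT2.

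The other genes listed with the same granules did not follow as a group. Of the other genes listed with the primary granules, *Cst7*, which encodes cystatin F, had 6.01 CPM in control at ZT2, 7.66 in MCS at ZT2, 3.63 in control at ZT14 and 2.15 in MCS at ZT14. *Ms4a3* and *Prss57* stayed under 1 CPM. *Prss57* had 4 reads in MCS at ZT2 and 0 in each other library, too few to resolve a difference. None of these 3 genes passed the criterion between MCS and control, and *Cst7* passed it between the times in MCS (log2 ratio 1.79, 1.11 to 2.62). Of 6 other secondary granule genes, *Mmp8*, the neutrophil collagenase, was the only one higher past the criterion in MCS at ZT2, with 0.693 CPM without MCS and 5.10 CPM with MCS (2.71, 1.64 to 4.40). At ZT14 it had 1.65 CPM without MCS and 0.716 CPM with MCS (-1.10, -2.74 to 0.18), the sign of *Ngp* but with an interval that included 0. *Cd177* lay between 13.7 and 16.0 CPM in all libraries. *Pglyrp1*, a peptidoglycan-binding protein, had 4.50 CPM without MCS and 11.1 CPM with MCS at ZT14 (1.29, 0.78 to 1.86), and *Hp*, the haptoglobin gene, had 53.5 and 84.1 CPM (0.65, 0.49 to 0.82). The sum of these 6 genes was 78.8 CPM without MCS and 88.4 CPM with MCS at ZT2, and 74.1 and 110 CPM at ZT14, mainly from *Hp*.

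Genes of late neutrophils also differed in their courses. Of 10 tertiary granule and late genes, 3 were higher past the criterion in MCS at ZT2, and 2 of them, *Mmp25* and *Retnlg*, at ZT14 as well. *Retnlg*, a resistin-like gene of mature neutrophils, had 2.31 CPM without MCS and 7.19 CPM with MCS at ZT2, and 2.20 and 5.93 CPM at ZT14. *Mmp25* had 0.924 and 4.87 CPM at ZT2 and 0.769 and 4.50 CPM at ZT14. These genes thus were higher in MCS at both times, unlike the secondary granule class. *Asprv1* had 1 read (0.115 CPM) in control and 21 reads (2.44 CPM) in MCS at ZT2, and 3 and 4 reads at ZT14. *Mmp9*, the gelatinase of tertiary granules, had 114, 148, 91.2 and 109 CPM in control at ZT2, MCS at ZT2, control at ZT14 and MCS at ZT14, and *Ifitm6* lay between 61.4 and 80.4 CPM. The sum of the 10 genes was 196 CPM without MCS and 246 CPM with MCS at ZT2 and 158 and 182 CPM at ZT14.

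Of 10 surface and activation genes of neutrophils, 1 was higher in MCS at ZT2 (*Il1r2*, with 5 and 18 reads) and 1 was lower (*Trem1*, with 7.04 CPM without MCS and 3.25 CPM with MCS), and 0 passed the criterion at ZT14. The chemokine receptor gene *Cxcr2* had 14.6 CPM without MCS and 24.7 CPM with MCS at ZT2 (0.76, 0.44 to 1.09), and 12.7 and 7.46 CPM at ZT14 (-0.76, -1.21 to -0.34). Its highest value was in MCS at ZT2 and its lowest in MCS at ZT14, as for *S100a8*, with a smaller difference at ZT2. The levels of *S100a8* outside MCS at ZT2 overlapped. *Mrgpra2b* had 1, 13, 3 and 0 reads in control at ZT2, MCS at ZT2, control at ZT14 and MCS at ZT14. *Csf3r*, the receptor of granulocyte colony-stimulating factor, had 143 CPM without MCS and 205 CPM with MCS at ZT2 (0.52, 0.41 to 0.63). At ZT14 it had 193 and 163 CPM (-0.24, -0.34 to -0.14), the signs of *Cxcr2*. *Clec4d* lay between 95.9 and 164 CPM. *Fpr2* had signs opposite to those of *Csf3r*. It had 43.1 and 33.6 CPM at ZT2 (-0.36, -0.58 to -0.13) and 25.0 and 35.6 CPM at ZT14 (0.50, 0.26 to 0.75). *Fpr1* lay between 10.7 and 24.8 CPM and *Padi4* between 452 and 915 CPM. *Csf3r*, *Clec4d*, *Fpr2* and *Padi4* were thus at 25.0 CPM or more in every library, also in those where the secondary granule sum was at most 5.05 CPM. The sum of the list was 1307 CPM without MCS and 1312 CPM with MCS at ZT2, and 793 and 867 CPM at ZT14. *Padi4* made up most of it, with 915 and 852 CPM at ZT2 and 452 and 532 CPM at ZT14.

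The transcription factors that switch on granule genes were present in all libraries. *Spi1*, which encodes PU.1, lay between 136 and 181 CPM, *Cebpa* between 132 and 183 CPM, *Cebpb* between 139 and 210 CPM and *Cebpd* between 23.9 and 32.1 CPM. *Cebpe*, the factor of specific granule genes, had 2.19 CPM without MCS and 3.60 CPM with MCS at ZT2 (0.69, -0.16 to 1.62), and 2.31 and 5.42 CPM at ZT14 (1.20, 0.48 to 2.04). Its highest value was therefore in MCS at ZT14 (53 reads), where *Ngp* had 0 reads. A link of *Cebpe* to the granule gene levels was not tested. *Gfi1* lay between 1.53 and 3.48 CPM. Of these 6 genes, 0 passed the criterion in MCS against control at ZT2 and 1, *Cebpe*, at ZT14.

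Markers of other cells differed between the same libraries, and their part in the granule gene levels was not tested. Mast cell genes (7 of 7 analysed) summed to 1828 CPM without MCS and 2254 CPM with MCS at ZT2, and to 1189 and 959 CPM at ZT14. The highest sum was in MCS at ZT2 and the lowest in MCS at ZT14. In control the mast cell sum was higher at ZT2, while the control levels of the secondary granule sum and of the S100 sum overlapped between the times. Of the 7, 0 passed the criterion between MCS and control and 6 between the times in MCS, and the proteases *Cma1* and *Tpsb2* were the most abundant. Of the monocyte list, with 6 of 6 genes analysed, the sum was 391 and 548 CPM at ZT2 and 420 and 392 CPM at ZT14. In that list *Ccr2* had 179 CPM without MCS and 234 CPM with MCS at ZT2, and 157 and 168 CPM at ZT14. *F13a1* had 87.0 and 184 CPM at ZT2 (1.08, 0.96 to 1.21) and 148 and 89.5 CPM at ZT14 (-0.73, -0.85 to -0.61). *Plac8* had 96.0 and 84.8 CPM at ZT2 and 95.5 and 112 CPM at ZT14, the opposite signs. *Ly6c2* had 3.12 and 4.52 CPM at ZT2 and 0.879 and 0.307 CPM at ZT14, the signs of *F13a1*. Its log2 ratio intervals of MCS to control included 0 at both times. Within MCS, *Ly6c2* was higher at ZT2, with 39 reads against 3 (3.51, 2.23 to 6.22). In control it was also higher at ZT2 (1.72, 0.65 to 3.18). Natural killer cell genes (5 genes, led by *Gzma* and *Eomes*) summed to 33.3 and 45.5 CPM at ZT2 and to 18.5 and 18.5 CPM at ZT14.

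Other lists had other courses. Red blood cell genes (6 of 11 analysed, led by *Hbb-b1* and *Hba-a2*) summed to 3.23 CPM without MCS and 36.7 CPM with MCS at ZT2 and to 1.32 and 112 CPM at ZT14, so they were highest in MCS at ZT14. *Hba-a2* had 484 reads there and 0 in each other library. In MCS at ZT2 and ZT14, *Hba-a1* had 190 and 192 reads and *Hbb-b1* 109 and 366. The secondary granule sum had its lowest value in MCS at ZT14, but its interval there overlapped that of control at ZT2. Eosinophil genes (4 of 8 analysed, led by *Il5ra* and *Ccr3*) summed to 67.8 and 77.8 CPM at ZT2 and to 58.7 and 90.1 CPM at ZT14, with the highest sum in MCS at ZT14. That came from *Ccr3*, with 1.32 and 33.8 CPM at ZT14, and *Siglecf*, with 0.659 and 14.1 CPM, while *Il5ra* was lowest in MCS at ZT14 (51.0 and 49.1 CPM at ZT2, 48.9 and 33.9 CPM at ZT14). B cell genes (5 of 6, led by *Cd79a* and *Ms4a1*) summed to 1044 and 1004 CPM at ZT2 and 1279 and 901 CPM at ZT14. T cell genes (5 of 6, led by *Cd3e* and *Cd4*) lay between 17.5 and 33.1 CPM in sum, and basophil genes (*Prss34* and *Mcpt8*) between 4.81 and 7.39 CPM. Cell cycle genes (6, led by *Mki67* and *Top2a*) summed to 130 CPM in both ZT2 libraries and to 69.6 CPM without MCS and 126 CPM with MCS at ZT14. The macrophage list (6 genes) summed to 25482 and 24701 CPM at ZT2 and 24733 and 27143 CPM at ZT14, and the large peritoneal macrophage list (4 genes, led by *Selp* and *Timd4*) to 1686, 1462, 1470 and 1616 CPM.

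**Figure D5:**
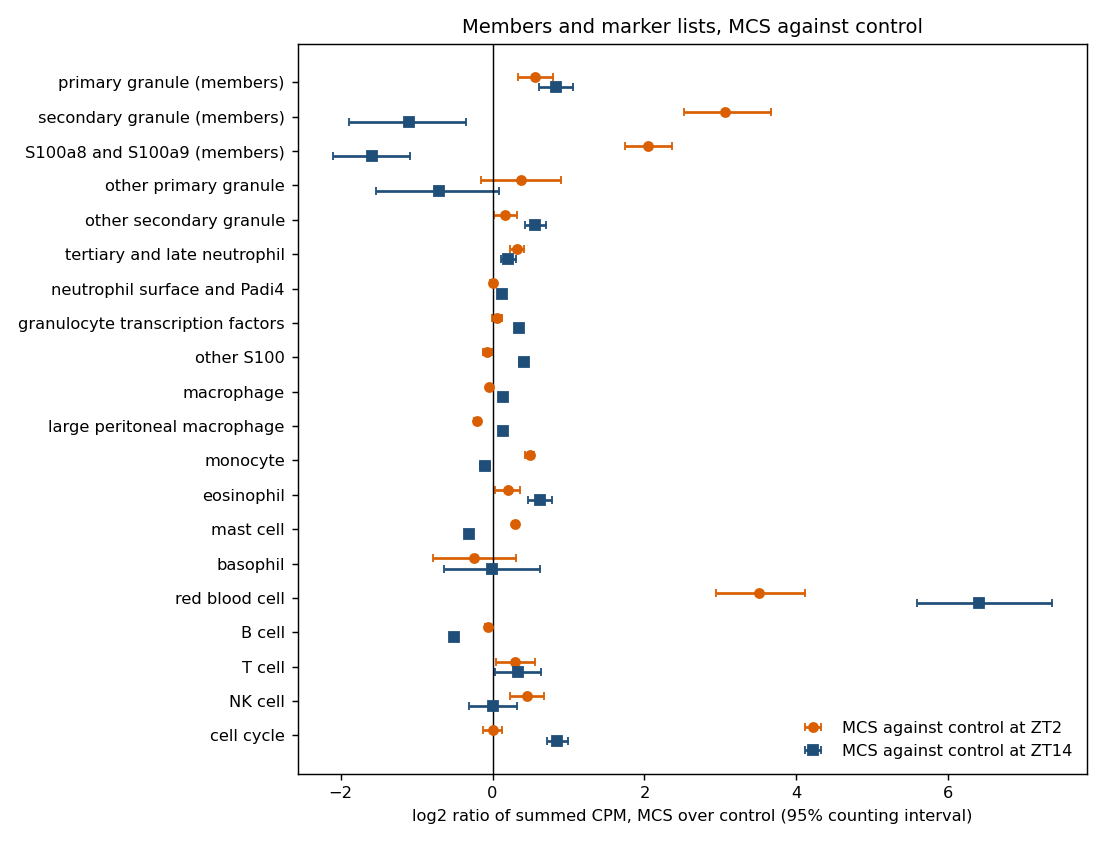
log2 ratio of summed CPM, MCS over control, for the 3 granule gene classes and the marker lists, at ZT2 (circles) and ZT14 (squares) with 95% counting intervals, 1 library per condition. The secondary granule class and the S100 pair lie at 3.07 and 2.05 at ZT2 and at -1.10 and -1.58 at ZT14, and the red blood cell list lies to their right at both times (3.50 and 6.40).

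Among 12503 genes with a mean of at least 1 CPM, those whose profile over the 4 libraries came nearest to a class were listed by the largest gap to the class sum in centred log2 values. Nearest to the secondary granule sum was *Gzmb*, the granzyme B gene of cytotoxic cells, with 2.77 CPM in control at ZT2, 15.1 in MCS at ZT2, 2.42 in control at ZT14 and 1.64 in MCS at ZT14 (gap 0.38). *Mmp8* came second (0.53), followed by *Cd101* (0.61), *Slc40a1*, *Chil1*, *Smarca1*, *BC048546*, *Ephx2*, *Nlrp12* and *Mefv* (0.83). Nearest to the S100 sum was *Mefv*, the pyrin gene expressed in neutrophils and monocytes, with 1.96, 5.80, 1.87 and 0.511 CPM in the same order of libraries (gap 0.29), followed by *Prss23*, *Cd101*, *Kcnc1*, *Gzmb*, *Gm5803*, *Krt8*, *Spock2*, *Aebp1* and *Klri2* (0.66). *Gzmb*, *Cd101* and *Mefv* were in both lists. The primary granule sum spanned 0.84 on the log2 scale, under the span of 1 required, and has no such list. For *Prtn3* alone, looked at after its values were seen, the nearest were *Ckb* (gap 0.08, with 84.3, 70.6, 85.4 and 146 CPM), *Neurl2*, the ribosomal gene *Rps27a*, the proteasome gene *Psma5*, *Alkbh7*, *Lamb2*, *Hist1h2ao*, *Garnl3*, *Fbxl15* and *Ndufb10* (0.12). No gene of the neutrophil lists was among the 10 nearest to *Prtn3*, while those nearest to the secondary granule sum held *Mmp8*. Likeness is over 4 libraries, which share depth and sort, and is no more than that.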

How the data were processed

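RNA of 4 libraries was measured, 1 per condition. The authors trimmed reads with Trimmomatic 0.38, counted them with RSEM 1.3.0 and Bowtie 2 on mm10, and deposited CPM normalized with edgeR. The library kit was directional, and the sources used here do not give the strand setting of the counting. The members and gene lists were chosen with earlier results of these data known.

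All values (100%) were whole multiples of 1 read within 0.05 read, and RSEM estimates may have been rounded. Exact Poisson intervals of levels, exact binomial intervals of shares and exact conditional binomial intervals of ratios (95%) were computed from these reads. They cover counting error only, as reads without molecular identifiers are not independent. A library at 0 was set to 3 reads for a bound. Printed member, class and list-sum ratios are of the CPM itself. Counts past the criterion, medians and ratios of single genes of other lists used log2(CPM + 0.1), which understates differences of low genes. The scripts were tested on simulated counts with known differences.

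Named were all 10 members, genes of the neutrophil lists with at least 1 CPM in any library, the 2 most abundant genes of other lists, and the 10 genes nearest in profile to each class sum that spanned more than 1. *Ms4a3*, *Prss57* and genes of the remaining lists beyond this rule were named after their values were seen. The sum without *Prtn3*, the sum of all members, and the nearest genes of *Prtn3* were also chosen after seeing the data. GENCODE release M21 gave positions and lengths and RefSeq promoters, both GRCm38, with all 10 members matched by symbol, and blastn 2.17.0 was used for near-identical transcripts. Proteins were not compared, and 1 gene of the neutrophil surface list is not reported here.

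An edgeR quasi-likelihood test with additive terms for time and MCS on 12404 genes with at least 40 reads, with 1 residual degree of freedom, called 24 genes for MCS (20 higher, 4 lower, 304 at an unadjusted p under 0.05) and 295 for time (179 higher at ZT2, 116 lower, 1287 unadjusted), at a Benjamini-Hochberg adjusted p of 0.05. It assumes 1 effect of MCS at both times, and no call on a member is given. Alternatives were pseudocounts of 1 and 0.01 CPM, other scalings, minimum levels and thresholds, and class sums without the most abundant gene. The software was Python 3.11.15, numpy 2.4.6, pandas 2.3.3, scipy 1.17.1, matplotlib 3.10.9, R 4.3.3 and edgeR 4.0.16.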

Additional observations from a re-analysis of the deposited data

Results flagged for a closer look

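The difference between MCS and control went in opposite directions at the 2 times for both the secondary granule sum and the S100 sum. At ZT14 only *Ngp* and *S100a9* among their genes had log2 ratio intervals below 0, ending at -1.58 and -2.03. The ZT14 intervals of *Ltf*, *Camp*, *Lcn2* and *S100a8* included 0. The log2 ratio of the MCS to control ratio at ZT14 to that at ZT2 was -4.15 for the secondary granule sum (95% counting interval -5.15 to -3.20) and -3.62 for the S100 sum (-4.23 to -3.04). For all members without *Prtn3* it was -3.54 (-3.98 to -3.11). Among single genes it was -5.22 for *S100a9* (-6.32 to -4.23) and -6.80 for *Ngp* with its library at 0 reads set to 3. With 1 library per condition the difference between the times was not tested, and the intervals cover counting error only. *Prtn3* had the opposite sign, at 1.16 (0.79 to 1.53), and the sum of all 4 primary granule genes lay at 0.27 (-0.05 to 0.59).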

How the results depend on the processing

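Class ratios are given here on the log2(CPM + 0.1) scale. They kept their direction under pseudocounts of 1 and 0.01 CPM, median ratio scaling and totals without *Rn45s*. TMM factors gave the same library sizes as the deposited CPM, so that alternative could not move any value here or below. Leaving out the most abundant gene of a class moved 10 of these 12 ratios beyond the counting interval. Without *Prtn3* the primary class was 2.16 for MCS against control at ZT2, -0.33 at ZT14 (reversed, from 0.84), 0.87 between the times in control and 3.37 in MCS (from 0.15 and -0.12). Without *Ngp* the secondary class was 2.47 for MCS against control at ZT2 and 2.81 between the times in MCS, and at -0.65 at ZT14 and -0.31 between the times in control it stayed within it. Without *S100a9* the S100 class, then *S100a8* alone, was 1.64, -0.52, 0.19 (from -0.19) and 2.34 in the order used for the primary class. Counts of all genes past the criterion for MCS against control at ZT2, at ZT14, and between the times in control and in MCS were 1434, 1615, 1567 and 2053 with no minimum, 26, 81, 139 and 197 with a minimum log2 mean of 3, and 37, 47, 47 and 128 at a threshold of 2. The genes tested in the same order were 15257, 15174, 15205 and 15243 with no minimum, and 9180, 9163, 9184 and 9204 with the minimum of 3. At the threshold of 2 they were 12612, 12368, 12465 and 12534. The members past the criterion were 3, 0, 0 and 3 with the minimum of 3. At the threshold of 2 they were 4, 1, 1 and 5, and with no minimum 9, 5, 3 and 10. Of the ratios of single members, 195 of their values under an alternative, those with TMM factors among them, stayed within the counting interval. Another 5 moved, all with a pseudocount of 1 CPM (*Ngp* 3.15 and -1.21 for MCS against control at ZT2 and ZT14, and *Mpo* 4.02, *Ltf* 2.77 and *Ngp* 3.69 between the times in MCS). With a library at 0 reads the interval is open on 1 side, so large shifts can stay within it. For MCS against control, *Elane* at ZT2 went from 2.77 to 0.66 and 5.88 with pseudocounts of 1 and 0.01 CPM. *Ngp* at ZT14 went from -3.83 to -7.05 with 0.01 CPM. Median ratio scaling and totals without *Rn45s* left the sign of each class ratio and each count of members past the criterion as reported. Depth limits *Elane* and *Camp*, with at most 5 reads in any library. No paired analysis was possible because each condition has 1 library.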

Other observations

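Genes that process, store or inhibit the granule proteases ranged widely in level. *Srgn*, the proteoglycan core that holds granule proteases, lay between 387 and 461 CPM, and *Ctsc*, which activates the granule serine proteases, between 237 and 277 CPM. *Slpi*, an inhibitor of elastase and cathepsin G, had 377 CPM without MCS and 263 CPM with MCS at ZT2, and 333 and 645 CPM at ZT14. Within MCS it was lower at ZT2 than at ZT14 (95% counting interval of the log2 ratio -1.37 to -1.23), the direction of *Prtn3*. The sum of the 7 genes was 1425 and 1266 CPM at ZT2 and 1212 and 1618 CPM at ZT14. *Serpina3f* was the 1 gene of the list past the criterion for MCS against control, with 7.97 CPM without MCS and 3.02 CPM with MCS at ZT2 (-1.37, -2.11 to -0.73). *Slpi* and *Serpina3f* were named after their values were seen.

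Over 6 other S100 genes, led by *S100a10* and *S100a6*, the sum was 467 CPM without MCS and 445 CPM with MCS at ZT2 and 389 and 517 CPM at ZT14, and 0 of the 6 passed the criterion in any of the 4 comparisons. Receptors of S100 proteins, lipocalin 2 and lactoferrin (5 genes) were led by *Lrp1*, between 3496 and 4315 CPM, and *Tlr4*, between 59.3 and 78.9 CPM, and 0 of them passed the criterion.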
